A study of Mus musculus with 14 samples.

Results

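The 40 mouse genes of the extracellular matrix described here were chosen by name: each of the 40 symbols matched 1 Ensembl gene ID among the 33459 in the count table. They fall into 8 fibrillar and fibril-associated collagens, 4 beaded-filament and network collagens, 11 components of the basement membrane, 3 genes of fibronectin and the elastic fibre, 6 matricellular genes, 4 genes that crosslink or chaperone collagen, and 4 small or large proteoglycans. Messenger RNA was sequenced from heart and from gonadal white adipose tissue (gWAT, the fat depot beside the gonads) of C57BL/6 mice aged 21 weeks, all of them fed a high fat diet for 8 weeks. The 2 genotypes were wild type (WT) and FHL2-/-, called KO here, with 4 WT and 4 KO hearts and 3 WT and 3 KO fat samples (numbered 1, 3 and 4 in the labels). FHL2 is a scaffold protein made of LIM domains that binds integrins, kinases and transcription factors. The labels do not say how the Fhl2 gene was disrupted, name no promoter or cell type for its loss and give no sex, and no group on another diet was analysed here. They also do not say that samples of 1 group came from separate mice, and a p-value here then speaks only of how far these samples spread, part of which may be technical.

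The matrix is the protein network outside cells. Fibrillar collagens I, III and V fold in the endoplasmic reticulum with the chaperone Serpinh1 (HSP47), leave the cell, assemble into fibrils and are crosslinked there by lysyl oxidases. Collagen IV, laminins, nidogen and perlecan form the basement membrane sheet that lines each adipocyte, myocyte and capillary. Collagen VI makes beaded filaments around adipocytes, and matricellular proteins such as periostin, tenascin C and the thrombospondins sit in the matrix and signal to cells rather than bear load. In obese fat, collagens I, III and VI build up around adipocytes and at sites of macrophage clusters, and in the heart the same collagens form scars and interstitial fibrosis.

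The promoters of 5 genes with lower levels in every KO fat sample are printed here, so that the sequence before their annotated starts stands beside the values; they were picked after those values were seen. In all, 27 of the 40 genes have an entry in the RefSeq promoter table (GRCm38.p6, the same assembly as mm10). The 13 genes without one are Col12a1, Col14a1, Col1a1, Col5a2, Eln, Fn1, Lama4, Lamc1, Lox, Loxl1, Loxl2, Lum and Thbs1. Each line gives the bases up to the last one before the RefSeq start site, 5′ to 3′ on the gene's own strand, with GGGCGG or its reverse complement CCGCCC and TATAAA in capitals; for each of the 5 genes the run is 250 bases.
Bgn, plus strand, chrX:73483351-73483600: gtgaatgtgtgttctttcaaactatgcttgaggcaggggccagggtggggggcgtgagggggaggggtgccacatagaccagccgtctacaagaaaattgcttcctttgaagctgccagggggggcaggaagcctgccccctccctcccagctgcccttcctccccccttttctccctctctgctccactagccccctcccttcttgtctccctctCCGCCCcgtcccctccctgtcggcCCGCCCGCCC
Col8a1, minus strand, chr16:57754738-57754987: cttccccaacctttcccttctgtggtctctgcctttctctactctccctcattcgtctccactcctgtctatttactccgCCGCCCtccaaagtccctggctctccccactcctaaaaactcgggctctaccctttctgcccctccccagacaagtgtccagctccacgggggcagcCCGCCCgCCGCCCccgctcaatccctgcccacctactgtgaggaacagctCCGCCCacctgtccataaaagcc
Tnc, minus strand, chr4:64047016-64047265: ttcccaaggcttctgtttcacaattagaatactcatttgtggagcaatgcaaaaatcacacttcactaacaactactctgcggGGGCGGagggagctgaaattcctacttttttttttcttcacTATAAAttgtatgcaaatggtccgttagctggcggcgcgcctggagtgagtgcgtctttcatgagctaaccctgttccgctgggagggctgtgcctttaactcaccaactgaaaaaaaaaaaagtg
Postn, plus strand, chr3:54360857-54361106: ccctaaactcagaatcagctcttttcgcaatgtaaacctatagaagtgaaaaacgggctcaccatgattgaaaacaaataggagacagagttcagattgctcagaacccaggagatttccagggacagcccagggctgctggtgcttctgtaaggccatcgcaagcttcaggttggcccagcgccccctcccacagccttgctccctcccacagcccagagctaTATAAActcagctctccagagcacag
Col3a1, plus strand, chr1:45311288-45311537: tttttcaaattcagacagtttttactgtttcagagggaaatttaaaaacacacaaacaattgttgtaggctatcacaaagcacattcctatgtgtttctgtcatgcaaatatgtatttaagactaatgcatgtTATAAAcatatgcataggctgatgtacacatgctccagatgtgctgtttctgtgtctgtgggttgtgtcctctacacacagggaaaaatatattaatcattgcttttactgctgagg
Bgn held 3 copies of the GGGCGG motif, all on the other strand and starting 6, 10 and 34 bases before the start site, with 2 of them overlapping. Col8a1 held 4 copies on the other strand, at 23, 66, 73 and 170 bases. The Postn window held TATAAA 26 bases before the start, and in Col3a1 the match lay 117 bases before it. Tnc held a copy of each motif, TATAAA at 126 and GGGCGG at 167 bases. Postn and Tnc each have a second start in the table, and the window of the other Postn start held neither motif. All 5 printed runs hold a marked motif. Col6a3, also lower in every KO fat sample, had a run of 250 bases with neither motif and is not printed.

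Across windows of 300 bases (250 before and 50 after a start, both strands searched), GGGCGG occurred in 20 of the 31 windows of the 27 genes (64.5%) against 35.7% of all 32851 windows in the table. The other motifs were at shares near those of all windows: CCAAT at 38.7% against 37.4%, TATAAA at 16.1% against 13.6%, TGANTCA at 6.45% against 7.81% and the CArG box at 3.23% (1 window, of Lama2) against 1.63%. A match is a run of letters and not a measured binding site.

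Col4a1 and Col4a2, the 2 chains of the common collagen IV trimer, lie head to head on chromosome 8, and the annotated gene bodies overlap by 22 bases between their start sites (chr8:11312805-11312826). That stretch is printed from each gene's strand because the pair shares it.
Col4a2, plus strand: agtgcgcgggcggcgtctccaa
Col4a1, minus strand: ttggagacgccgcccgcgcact

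Libraries held 10835092 to 13272412 gene-assigned counts in heart and 15105019 to 16040188 in fat, and the groups overlapped in depth within each tissue. Fhl2 itself was the check on the labels. In heart it stood at 1031, 1068, 1294 and 1396 CPM (a count relative to its library's total, with library sizes scaled by TMM within the tissue) in WT replicates 1 to 4 and at 34.8, 28.6, 37.8 and 34.7 CPM in KO replicates 1 to 4. In fat it stood at 4.35, 6.26 and 5.70 CPM in the WT samples and 0.462, 0.257 and 0.451 CPM in the KO samples, so every KO sample lay below every WT sample of its tissue. The log2 fold change was -5.14 in heart (edgeR, adjusted p = 1.99e-08) and -3.78 in fat (adjusted p = 0.0101). The tissues carried their defining genes: the cardiac myosin gene Myh6 lay between 9739 and 12711 CPM in heart and between 3.40 and 5.94 CPM in fat, and the adipocyte hormone gene Adipoq lay between 1759 and 4114 CPM in fat and between 2.46 and 27.2 CPM in heart. The 40 genes together took 3.14% ± 0.220 (SD, n = 3) of all counts in WT fat, 2.66% ± 0.181 (n = 3) in KO fat, 0.468% ± 0.0418 (n = 4) in WT heart and 0.460% ± 0.0564 (n = 4) in KO heart. In fat the 3 KO shares (2.47% to 2.83%) lay below the 3 WT shares (2.90% to 3.34%), while in heart the ranges overlapped. That gap in fat depends on the scaling. On TMM-scaled libraries the 40 genes summed to 33050, 31541 and 28216 CPM in WT fat replicates 1, 3 and 4. In KO fat replicates 1, 3 and 4 the sum was 25095, 27234 and 28706 CPM, so the groups overlapped. All 40 genes passed the filter on low counts in every comparison. In 14 of them some exon bases also lie in another gene, on the opposite strand in 13, and whether reads were counted by strand is not in the labels. The shared part was at most 5.70% of the exon length except in Fbn1, where it was 20.1%. RNA from bulk tissue was measured, so fewer cells of a type and less RNA per cell cannot be told apart in any of the results.

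WT fat and WT heart were compared first, to show which matrix genes each tissue holds. For comparison between genes and tissues, counts were scaled over all 14 libraries together and divided by the length of each gene's merged exons in kilobases. On that scale Sparc, a collagen-binding matricellular protein, was the highest of the 40 in both tissues, at 1744, 1149 and 1328 CPM per kilobase in WT fat replicates 1, 3 and 4 and at 132, 117, 139 and 138 in WT heart replicates 1 to 4. Serpinh1, the collagen chaperone, came next in both by merged exons, at 309 ± 84.3 (SD, n = 3) in fat and 104 ± 8.10 (SD, n = 4) in heart. That rank depends on the length used: Bgn was second in heart by coding length (358 ± 67.5 against 204 ± 15.8 for Serpinh1) and by the longest transcript (149 ± 28.0 against 112 ± 8.70), and Col3a1 was second in fat by the longest transcript (468 ± 88.4 against 332 ± 90.6). Sparc stayed the highest by all 3 lengths. By merged exons these were followed in fat by Col3a1 at 265 ± 50.1, Col4a1 at 253 ± 49.7 and Col6a1 at 245 ± 41.1 CPM per kilobase. Those 3 did not differ beyond their spread. In heart the order after Serpinh1 was different, with Col4a1 at 67.7 ± 10.8 and the proteoglycans Bgn at 64.9 ± 12.2 and Lum at 54.3 ± 11.1 ahead of every fibrillar collagen. The spreads of those 3 overlapped as well.

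At the lower end in fat, Col4a5, an alternative collagen IV chain, stood at 3.60, 2.17 and 2.55 CPM per kilobase and Col8a1, a short network collagen of vessels, at 2.86 ± 0.889, a difference within the spread. The lowest in heart was Tnc, a matricellular gene mostly silent in healthy adult tissue, at 0.399, 0.195, 0.248 and 0.191 CPM per kilobase, next to Col12a1 at 0.268 ± 0.156.

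In edgeR's quasi-likelihood test of WT heart against WT fat, 36 of the 40 genes passed an adjusted p of 0.05, against 69.4% of the 15287 genes tested. Of these, 32 were lower in heart (background 36.1%) and 4 were higher (background 33.3%). The median log2 difference, heart minus fat, was -1.92 over the 40 genes and -0.03 over all genes. The fibrillar collagens and their relatives were all lower in heart, 8 of 8, with a median of -3.15. Col5a3, the least widely expressed chain of collagen V, had the most negative difference of the 40, -5.24 ± 0.27 (SE, adjusted p = 2.86e-07). In heart its 4 WT samples held 1.40, 1.80, 3.10 and 2.59 CPM per kilobase, and in fat the 3 WT samples held 97.9, 81.8 and 71.6. Lox, the founding lysyl oxidase, differed by -3.78 ± 0.23 (adjusted p = 7.94e-07), and Loxl1 by -1.02 ± 0.14 (adjusted p = 0.000127).

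The 4 genes higher in heart were Lamb2, Col8a1, Col4a5 and Lama2, and 3 of them build the basement membrane. Lamb2, the laminin beta 2 chain of muscle and nerve endings, differed by 1.22 ± 0.11 (adjusted p = 7.85e-06), with 20.4, 18.2 and 16.98 CPM per kilobase in WT fat and 44.4, 38.4, 44.6 and 45.4 in WT heart. Its sister chain Lamb1 went the other way (-0.72 ± 0.11, adjusted p = 0.000312). The ratio of Lamb2 to Lamb1 per kilobase was 0.830 ± 0.0120 (SD, n = 3) in WT fat and 3.20 ± 0.200 (SD, n = 4) in WT heart. Lama2, the chain whose loss causes a congenital muscular dystrophy, differed by 0.67 ± 0.18 (adjusted p = 0.00821) and Lama4, the endothelial and adipocyte chain, by -0.84 ± 0.11 (adjusted p = 0.000123). The Lama2 to Lama4 ratio was 0.321 ± 0.111 in WT fat and 0.896 ± 0.0354 in WT heart. The 4 genes that did not pass were the 4 proteoglycans: Bgn (-0.24 ± 0.16, adjusted p = 0.222), Lum (-0.31 ± 0.15, adjusted p = 0.0895), Vcan (-0.26 ± 0.26, adjusted p = 0.395) and Fmod (-0.74 ± 0.61, adjusted p = 0.305).

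These directions depend on how 2 such different tissues are scaled. With plain library totals in place of TMM (an alternative chosen after seeing the data) the median over all genes moved to -0.61, and the 36 genes past the threshold (75.0% of all genes) were 1 higher in heart and 35 lower, against 19.0% and 56.1% of all genes. Lamb2 remained higher (0.64 ± 0.09, adjusted p = 0.000152), Col8a1 (0.34), Col4a5 (0.21) and Lama2 (0.06) kept their sign without passing, and Lum, Bgn and Vcan passed as lower in heart.

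**Figure D1:**
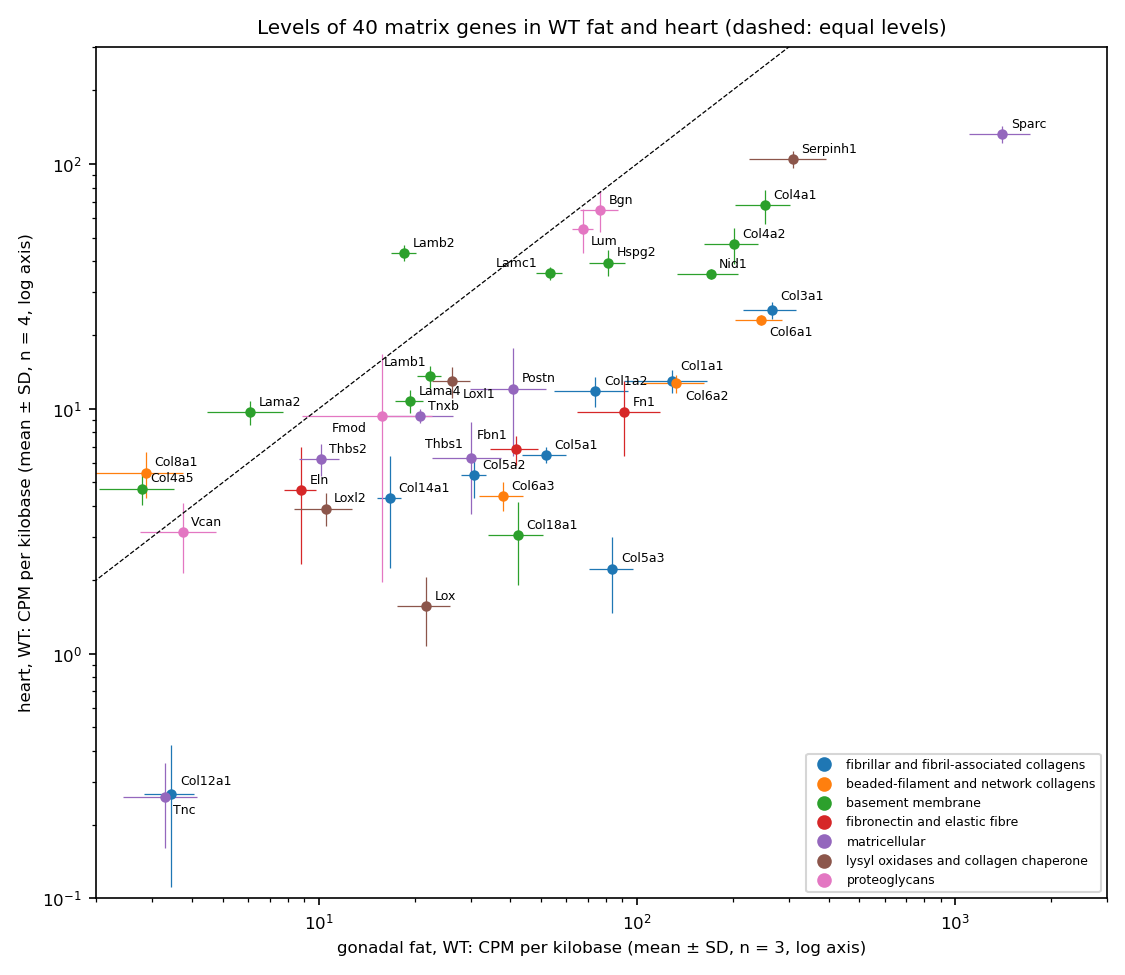
Mean level of each of the 40 genes in WT fat (horizontal, n = 3) and WT heart (vertical, n = 4) in CPM per kilobase of merged exon, scaled over all 14 libraries, both axes logarithmic, with SD as bars and colours for the 7 roles. Most points lie below the dashed line of equal levels, Lamb2, Lama2, Col8a1 and Col4a5 lie above it, and the proteoglycans Bgn, Lum and Vcan lie just below it.

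In fat, 14 of the 40 genes were lower in every KO sample than in any WT sample (14.5% of all genes were) and 3 were higher in every KO sample (13.3% of all genes). Col1a1, the main collagen I gene, stood at 512 ± 116 CPM (SD, n = 3) in KO and 1046 ± 325 CPM (SD, n = 3) in WT, and Col6a3, Col8a1, Bgn, Lum, Tnc and Postn were lower as well. The 3 higher ones were Thbs1, at 564 ± 252 CPM in KO and 226 ± 59.6 CPM in WT, and the laminin genes Lamb2 and Lama4. No gene of the 40 passed the test of KO against WT at an adjusted p of 0.05 (edgeR's quasi-likelihood test, Benjamini-Hochberg over the 15200 genes tested), where 5.49% of all genes passed. The lowest adjusted p was 0.0511, and 9 of the 40 lay below 0.1 (2 higher in KO, 7 lower), against 11.8% of all genes. At an unadjusted p below 0.05 there were 16 of 40, 4 higher and 12 lower, against 23.1% of all genes (10.4% higher, 12.7% lower). In all, the KO and WT samples did not overlap in 17 of the 40 genes, against 27.8% of all genes. The log2 fold change was negative for 26 genes and positive for 14, against 50% of all genes in each direction, with a median of -0.14 over the 40 and 0.00 over all genes. The count of calls depends on the fit. DESeq2 passed 12 of the 40 (3 higher, 9 lower, with 11.6% of all genes), edgeR without the filter on low counts passed 10 (2 higher, 8 lower, with 5.66%), 1 edgeR fit of all 14 libraries passed 7 (2 higher, 5 lower, with 10.8%), and limma-voom (3.14% of all genes), library totals (5.09%) and a stricter filter (5.86%) passed 0. Leaving out WT replicate 1 gave 12 (3 higher, 9 lower, with 18.7%), and leaving out any other fat sample gave 0 (with 0.855% of all genes without WT replicate 3 and 0% without each of the others).

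By role, all 4 beaded-filament and network collagens and all 4 crosslinking or chaperone genes had negative values, 6 of the 8 fibrillar collagens did, and 6 of the 11 basement membrane genes were positive. The WT samples did not share 1 order. WT replicate 1 was the highest of the 3 for 10 of the 11 basement membrane genes, and WT replicate 3 was the highest for 5 of the 8 fibrillar collagens and 5 of the 6 matricellular genes. Over all 40 genes, replicate 1 was highest for 20, replicate 3 for 19 and replicate 4 for 1.

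**Figure D2:**
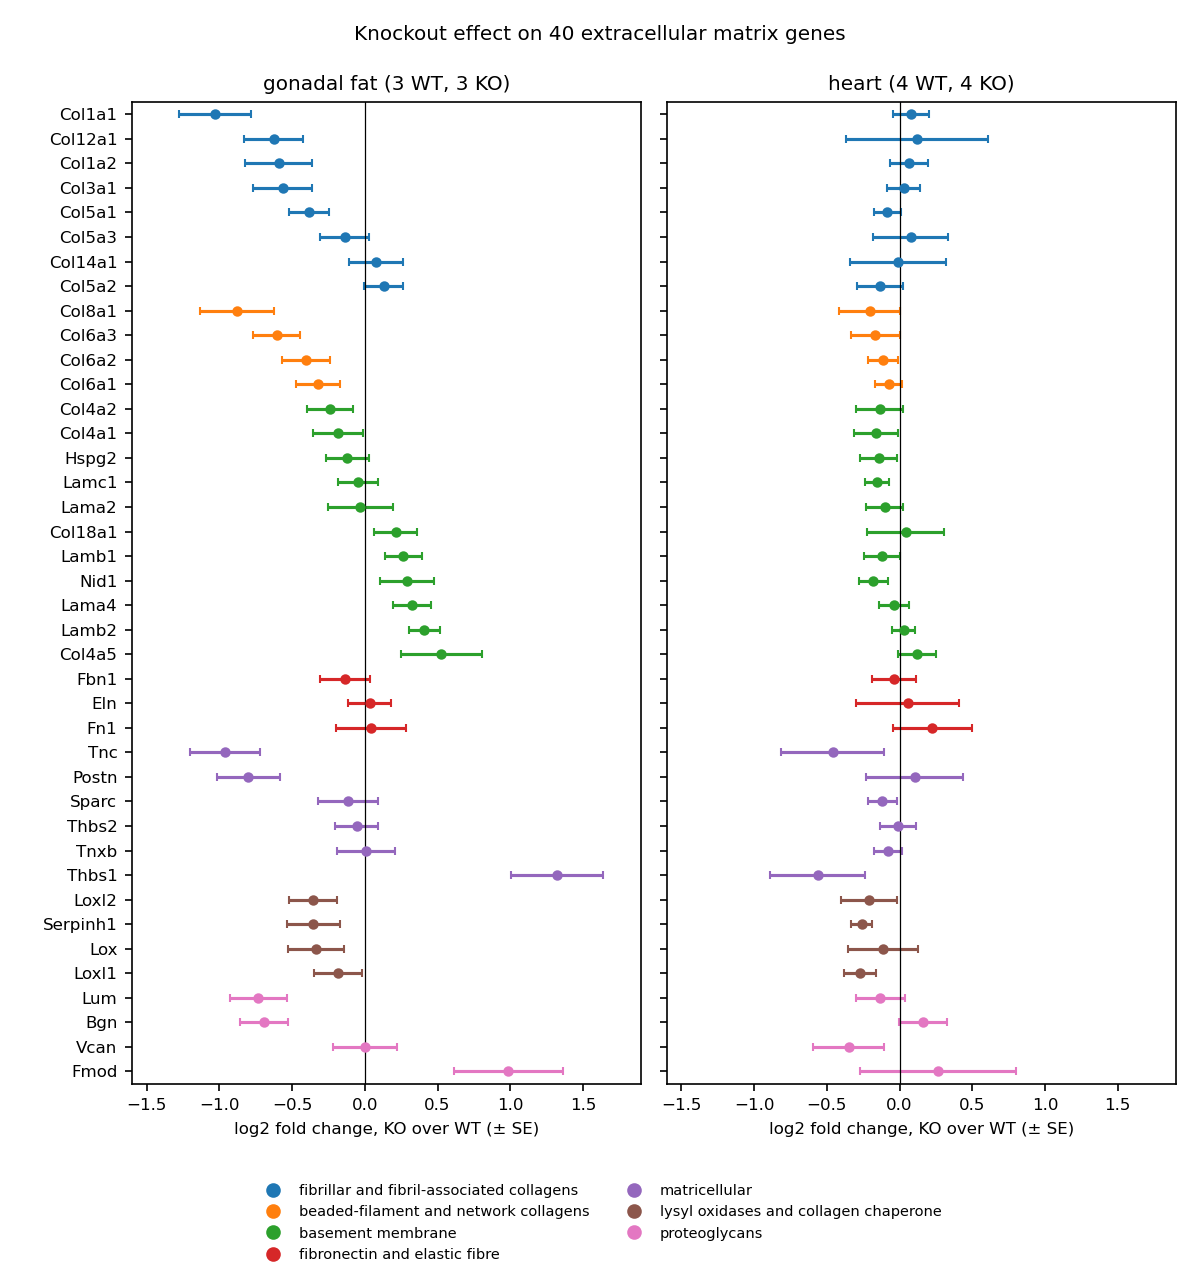
Log2 fold change of KO over WT for each of the 40 genes, with its standard error, in gonadal fat (left, 3 against 3) and heart (right, 4 against 4), grouped and coloured by role. In fat the fibrillar and network collagens lie mostly left of 0, down to -1.03 for Col1a1, and the basement membrane genes lie on both sides, while in heart the values lie between -0.56 and 0.26.

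Among the fibrillar collagens, Col1a1, the main chain of collagen I (chr11:94936224-94953042, plus strand, mm10), stood at 770.0, 1405 and 964 CPM in WT replicates 1, 3 and 4 and 443, 646 and 446 CPM in KO replicates 1, 3 and 4. Every KO sample lay below every WT sample, and the log2 fold change was -1.03 ± 0.25 (adjusted p = 0.0518). Its partner Col1a2 stood at 854, 1483 and 1082 CPM in WT replicates 1, 3 and 4 and 639.9, 929.6 and 698 CPM in KO replicates 1, 3 and 4, and here the groups overlapped (-0.59 ± 0.23, adjusted p = 0.17). Col3a1, the collagen of soft and stretchable tissue (chr1:45311538-45349706, plus strand), stood at 2752, 3980.1 and 2934 CPM in WT replicates 1, 3 and 4 and 1921, 2572 and 2039.8 CPM in KO replicates 1, 3 and 4. The KO samples were again the lower ones (-0.57 ± 0.20, adjusted p = 0.141). Col5a1, which seeds collagen I fibrils, stood at 617, 542 and 465 CPM in WT replicates 1, 3 and 4 and 382, 437 and 426 CPM in KO replicates 1, 3 and 4 and did not overlap (-0.38 ± 0.14, adjusted p = 0.143). Col12a1, a fibril-associated collagen, stood at 75.5, 55.6 and 62.5 CPM in WT replicates 1, 3 and 4 and 29.6, 49.4 and 46.3 CPM in KO replicates 1, 3 and 4, also without overlap (-0.63 ± 0.20, adjusted p = 0.106). The other 3 of this role had overlapping groups, Col5a3 at -0.14, Col14a1 at 0.08 and Col5a2 at 0.13. Col3a1 and Col5a2 lie 2.12 and 2.18 megabases from Fhl2 on chromosome 1, and any effect of donor-strain DNA around the disrupted gene cannot be told apart from the loss of FHL2 there.

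Every gene of the beaded-filament and network collagens was lower in each KO sample than in any WT sample, 4 of 4 (14.5% of all genes were). Col6a3, whose product is cleaved to release endotrophin, stood at 544, 657 and 475 CPM in WT replicates 1, 3 and 4 and 374, 314 and 413 CPM in KO replicates 1, 3 and 4, with a log2 fold change of -0.61 ± 0.16 (adjusted p = 0.0681). Col6a1 and Col6a2, the other chains of collagen VI, had values of -0.32 ± 0.15 (adjusted p = 0.252) and -0.41 ± 0.17 (adjusted p = 0.19). Col6a1 stood at 1527, 1296 and 1136 CPM in WT replicates 1, 3 and 4 and 1069, 990.3 and 1111 CPM in KO replicates 1, 3 and 4. Col8a1, whose promoter with 4 GGGCGG copies is printed above, stood at 18.7, 37.0 and 27.7 CPM in WT replicates 1, 3 and 4 and 12.02, 18.6 and 14.9 CPM in KO replicates 1, 3 and 4 (-0.88 ± 0.26, adjusted p = 0.0842). The gap between the groups was narrow in Col8a1, where the lowest WT and the highest KO sample were 18.7 and 18.6 CPM. In Col6a1 those samples were 1136 and 1111 CPM.

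The basement membrane genes did not share a direction. Lamb2, the laminin chain (chr9:108479736-108490530, plus strand), stood at 149, 139 and 128 CPM in WT replicates 1, 3 and 4 and 175, 196 and 183 CPM in KO replicates 1, 3 and 4. All KO samples were higher than all WT samples, and the difference was 0.41 ± 0.11 (adjusted p = 0.0612). Lama4 stood at 313, 273 and 277 CPM in WT replicates 1, 3 and 4 and 333, 334 and 414 CPM in KO replicates 1, 3 and 4, higher in KO without overlap (0.32 ± 0.13, adjusted p = 0.184). Lamc1, the gamma chain in most laminins, stood at 573, 563 and 490.4 CPM in WT replicates 1, 3 and 4 and 466, 507 and 598 CPM in KO replicates 1, 3 and 4, with overlapping groups (-0.05 ± 0.14, adjusted p = 0.866). Col4a1, the major chain of collagen IV, stood at 2788, 2124 and 2055 CPM in WT replicates 1, 3 and 4 and 1998, 1939 and 2205 CPM in KO replicates 1, 3 and 4, with overlap, since KO replicate 4 exceeded WT replicates 3 and 4. Col4a2 did not overlap, but by a narrow margin, with 1476 CPM in the lowest WT and 1473 CPM in the highest KO sample (-0.24 ± 0.16, adjusted p = 0.417). Col4a5 stood at 29.1, 18.3 and 21.3 CPM in WT replicates 1, 3 and 4 and 24.0, 48.2 and 26.7 CPM in KO replicates 1, 3 and 4, and Col18a1, the source of endostatin, at 437, 317 and 343 CPM in WT replicates 1, 3 and 4 and 433, 447 and 391 CPM in KO replicates 1, 3 and 4. Both overlapped. The linker nidogen Nid1 (0.29), Lamb1 (0.27), Lama2 (-0.03) and the perlecan gene Hspg2 (-0.12) overlapped as well.

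The matricellular genes held the most positive value of the 40, that of Thbs1, and 2 of the more negative ones. Thbs1, an activator of latent TGF-beta and inhibitor of vessel growth, stood at 163, 281 and 235 CPM in WT replicates 1, 3 and 4 and 409, 428 and 855 CPM in KO replicates 1, 3 and 4. KO replicate 4 was the highest, all 3 KO samples exceeded all WT samples, and the difference was 1.32 ± 0.32 (adjusted p = 0.0513). Its relative Thbs2 overlapped (-0.05 ± 0.15, adjusted p = 0.863). Tnc, an adhesion-modulating glycoprotein of remodelling tissue, stood at 22.7, 40.5 and 31.6 CPM in WT replicates 1, 3 and 4 and 14.2, 13.7 and 20.9 CPM in KO replicates 1, 3 and 4, lower in KO without overlap (-0.96 ± 0.24, adjusted p = 0.0569). Postn, encoding periostin, stood at 329.8, 577 and 413 CPM in WT replicates 1, 3 and 4 and 240.1, 217 and 301 CPM in KO replicates 1, 3 and 4, also lower without overlap (-0.80 ± 0.22, adjusted p = 0.0707). Both have TATAAA in a promoter printed above, and Thbs2, whose promoter is not printed, has it in its window as well. Sparc, the highest of the 40, stood at 7957, 5464 and 6255 CPM in WT replicates 1, 3 and 4 and 5429.8, 6207 and 6494 CPM in KO replicates 1, 3 and 4, with overlap (-0.12 ± 0.21). Tnxb, tenascin X, overlapped too (0.01).

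Bgn and Lum, small leucine-rich proteoglycans that bind collagen fibrils, were lower in KO without overlap. Bgn stood at 516, 679 and 537 CPM in WT replicates 1, 3 and 4 and 310.4, 424 and 337 CPM in KO replicates 1, 3 and 4 (-0.69 ± 0.17, adjusted p = 0.0511). Lum stood at 188, 201 and 223 CPM in WT replicates 1, 3 and 4 and 85.2, 136 and 148 CPM in KO replicates 1, 3 and 4 (-0.73 ± 0.20, adjusted p = 0.0696). Fmod, the third gene of that family here, had a positive value (0.98 ± 0.37, adjusted p = 0.162) with overlapping groups, from 34.8 to 88.0 CPM in WT and from 83.2 to 187 CPM in KO. The large proteoglycan gene Vcan overlapped (0.00 ± 0.22).

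The 4 genes that finish collagen had values from -0.36 to -0.19, and none passed. Serpinh1 was the one among them without overlap, and its WT samples (1195, 786 and 803 CPM) spread more widely than its KO samples (697, 742 and 739.6 CPM). Lox, Loxl1 and Loxl2 overlapped. The fibronectin gene Fn1 (0.04), the fibrillin gene Fbn1 (-0.14) and the elastin gene Eln (0.03) had values from -0.14 to 0.04 and overlapped.

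**Figure D3:**
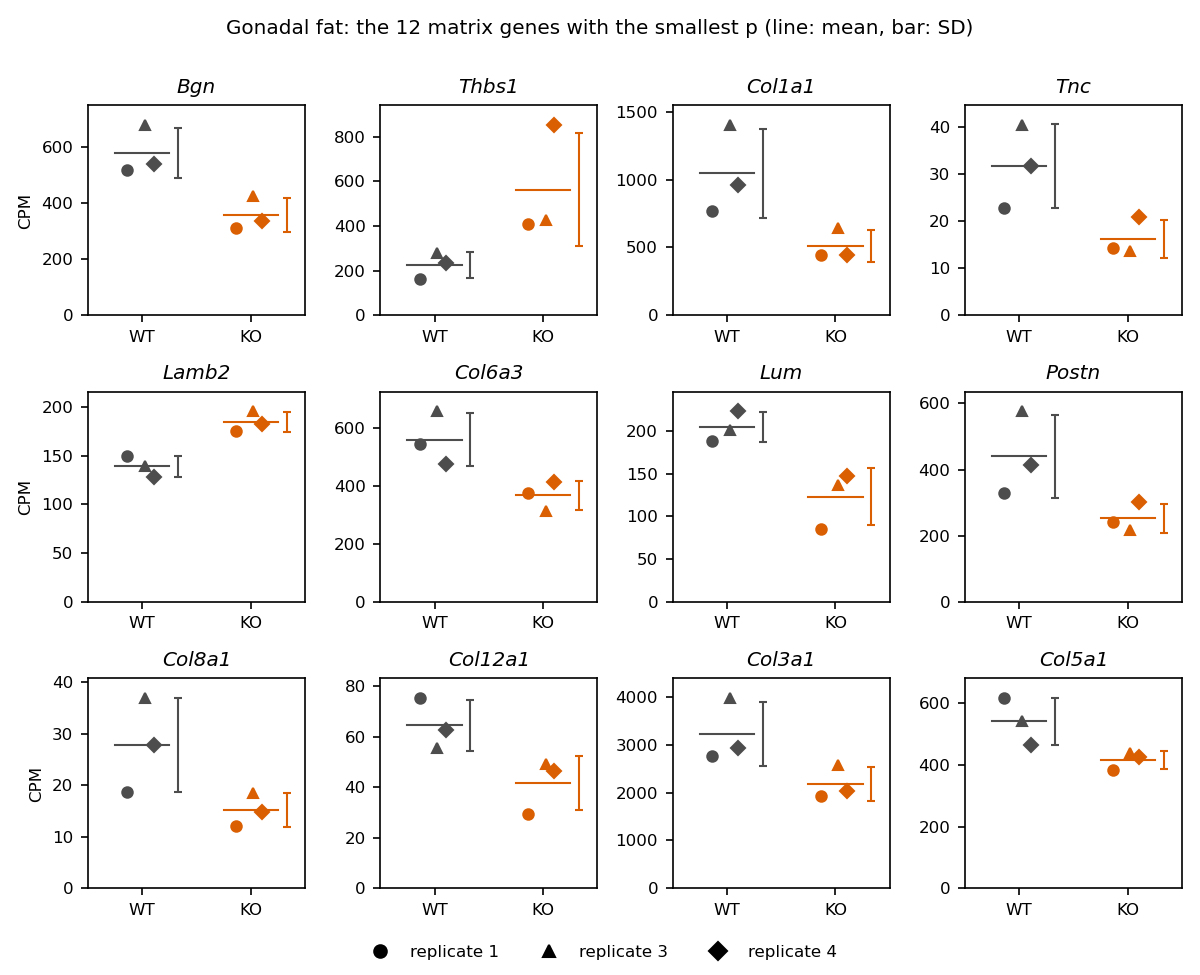
CPM in each fat sample for the 12 genes of the 40 with the smallest p, with WT in grey, KO in orange, the marker shape for the replicate number in the labels, the mean as a line and the SD as a bar; vertical axes are linear and start at 0. The groups do not overlap in any of the 12 panels, Thbs1 and Lamb2 are higher in KO, and the 3 WT points of Col1a1 spread from 770.0 to 1405 CPM.

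Ratios between chains of 1 protein family remove the library scaling. In all, 9 ratios were formed per kilobase of merged exon (their size depends on the lengths, their comparison between groups does not). The groups did not overlap in 4 of the 9 in fat and in 0 of the 9 in heart. The share among other gene pairs was not determined. Among all single genes, 27.8% did not overlap in fat and 2.41% in heart. In fat the 4 pairs hold genes that also did not overlap singly (Col1a1, Col5a1, Thbs1, Col6a1 and Col6a2). Collagen I is a trimer of chains from both Col1a1 and Col1a2. The Col1a1 to Col1a2 ratio was 1.71, 1.79 and 1.69 in the WT fat samples and 1.31, 1.32 and 1.21 in the KO fat samples. It was 1.11 ± 0.136 (SD, n = 4) in WT heart and 1.12 ± 0.178 in KO heart. The spread of this ratio within each fat group was small beside the step between the groups, although the Col1a1 level itself varied between the WT samples from 770.0 to 1405 CPM. Col5a1 to Col5a2 went the same way, 2.01, 1.50 and 1.54 in WT fat and 1.24, 1.18 and 1.12 in KO fat. Thbs1 to Thbs2 went from 2.94 ± 0.309 (SD, n = 3) in WT to 7.67 ± 3.17 (SD, n = 3) in KO fat. The remaining ratio, Col6a1 to Col6a2, was apart by the narrowest margin (1.906 in the highest WT and 1.907 in the lowest KO sample). Col4a1 to Col4a2, the pair that shares the printed stretch, overlapped in both tissues, at 1.26 ± 0.0190 and 1.31 ± 0.0318 in WT and KO fat and 1.44 ± 0.0404 and 1.42 ± 0.0528 in WT and KO heart. The ratios were not tested, and in fat 3 samples against 3 allow no exact permutation p below 0.1.

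Markers of other cells moved in the same fat samples. Here rose and fell mean an adjusted p below 0.05 in edgeR, which 5.49% of all genes reached. An unadjusted p below 0.05 was reached by 23.1% of all genes. Of 13 lipid-associated macrophage markers, 9 fell in KO, and the median log2 fold change was -2.15. Of these markers 12 were negative and 1 positive, with 11 at an unadjusted p below 0.05 in edgeR. Their mean log2 level was 7.84, 9.25 and 8.98 in WT replicates 1, 3 and 4 and 6.93, 7.01 and 7.11 in the KO samples, and their summed level was 23426, 22198 and 21847 against 17518, 16948 and 18858 CPM. Of 15 general macrophage markers 4 fell and 1 rose, with a summed level of 3006, 6154 and 4922 CPM in WT and 2655, 2608 and 2898 CPM in KO. By sign 12 were negative and 3 positive, and 13 had an unadjusted p below 0.05 in edgeR. The lipid-associated list includes Lpl and Cd36, which adipocytes also express and which carry much of the sum. In both lists WT replicate 3 had the highest mean log2 level, then replicate 4, then replicate 1. That is also the order of 14 of the 40 matrix genes, Col1a1, Tnc, Postn and Bgn among them, and also Thbs1, which was higher in KO. Other matrix genes lower in every KO sample had other orders, namely Col6a3, Col5a1, Col12a1, Col6a1, Col6a2 and Lum among them. The order 1, 3, 4 held for 11 of the 40. The share of all genes with the order of the macrophage lists was not determined, so the count of 14 cannot be read as a trait of matrix genes. Of 15 adipocyte markers 14 were positive and 1 negative, with 9 at an unadjusted p below 0.05 in edgeR. Of the 15, 5 rose (summed level 46789, 29381 and 36102 against 58772, 52052 and 55329.9 CPM). Car3 alone carried much of that sum, at 8166 ± 2968 CPM (SD, n = 3) in WT and 19255 ± 1303 CPM in KO. The mean log2 level of the 15 was 10.03, 9.28 and 9.56 in WT and 10.46, 10.33 and 10.37 in KO. Of 11 mesothelial markers 3 rose (summed level 337, 155 and 298 against 591, 744 and 442 CPM). All 11 were positive and had an unadjusted p below 0.05 in edgeR, with a median log2 fold change of 1.12. Of 14 markers of fibroblasts and adipose progenitors, the main makers of fibrillar collagen, 0 passed, and their median was 0.26, with 10 positive and 4 negative. In edgeR 7 of the 14 had an unadjusted p below 0.05, against 23.1% of all genes. The summed level of the 14 was 6509, 7361 and 7699.6 CPM in WT and 11442, 10599 and 12126 CPM in KO. Their mean log2 level differed less, at 6.69, 6.82 and 6.76 in WT and 6.87, 6.91 and 7.12 in KO. No marker of these 5 lists was at 0 in a fat group. In the remaining lists the count past the test was 0 of 9 for smooth muscle and pericytes, 0 of 14 for endothelium, 0 of 8 for T and B cells, 0 of 3 for Schwann cells, 0 of 6 each for atrium and valve and 0 of 1 for epididymal epithelium, whose genes Lcn5, Adam28 and Defb2 were at 0 in both groups, and 1 of 10 cardiomyocyte markers fell. The part of these cell markers in the matrix values was not tested.

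In heart, Serpinh1 was the 1 gene of the 40 whose KO and WT samples did not overlap (2.41% of all genes did not), and it was lower in KO (1.17% of all genes). A count of 1 in 40 without overlap in either direction is near the share of all genes. None of the 40 genes passed edgeR's test of KO against WT, where 0.00706% of the 14159 genes tested passed, a share that stands for 1 gene, Fhl2. In edgeR, 2 of the 40 had an unadjusted p below 0.05, both lower in KO, against 3.20% of all genes (1.60% lower in KO). DESeq2 also passed 0, with 2 at an unadjusted p below 0.05. The median log2 fold change was -0.09 over the 40 genes and 0.00 over all genes, with 27 values below 0 and 13 above, against 51.0% of all genes below 0.

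Both genes at the low end of p belong to the role of lysyl oxidases and collagen chaperone. Serpinh1 (chr7:99345376-99353239, minus strand) stood at 237, 229, 205 and 203 CPM in WT replicates 1 to 4 and at 177, 185, 183 and 185 CPM in KO replicates 1 to 4. Every KO heart lay below every WT heart, and the KO values were close to each other (-0.26 ± 0.07, unadjusted p = 0.00438, adjusted p = 0.9997). Loxl1, the lysyl oxidase of elastic fibres, stood at 43.0, 38.6, 33.8 and 31.0 CPM in WT and 31.2, 32.8, 30.9 and 26.6 CPM in KO, with overlap (-0.27 ± 0.11, unadjusted p = 0.0317). Lox and Loxl2 were also on the negative side (-0.11, which turned positive in 3 of 20 alternatives, and -0.21). All 4 genes of this role thus had values below 0 in both tissues without passing in either. The same held for the 4 beaded-filament and network collagens, so it is not particular to this role. Next by p in heart came 2 basement membrane genes with overlapping groups. Lamc1 stood at 270.0, 234, 255 and 254 CPM in WT and 206, 231, 253 and 219 CPM in KO (-0.16 ± 0.08, unadjusted p = 0.0856). Nid1 stood at 203, 202, 219.6 and 219 CPM in WT and 158, 178, 224 and 186 CPM in KO (-0.18 ± 0.10, unadjusted p = 0.103).

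The genes with the smallest p in fat were read in heart as well. Col1a1 stood at 83.3, 66.7, 74.1 and 67.9 CPM in WT hearts and 70.0, 70.7, 97.9 and 70.0 CPM in KO hearts (0.08 ± 0.12, negative in 2 of 20 alternatives), and KO replicate 3 lay above the other KO hearts. Thbs1 stood at 34.9, 49.0, 29.3 and 17.1 CPM in WT and 14.4, 29.4, 30.5 and 14.3 CPM in KO, with a negative value where fat had a positive one (-0.56 ± 0.33, unadjusted p = 0.114). Bgn stood at 425, 348, 284 and 298 CPM in WT and 422, 447, 373 and 271 CPM in KO (0.16 ± 0.17). Tnc was low in heart, at 2.65, 1.30, 1.65 and 1.27 CPM in WT and 0.781, 1.23, 1.98 and 1.01 CPM in KO (-0.46 ± 0.36).

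Some matrix genes varied widely between hearts of 1 genotype. The median spread within groups (SD of log2 CPM) was 0.26 over the 40 genes and 0.17 over all genes tested in heart. Fmod had the widest spread of the 40, 1.06, followed by Col12a1 (0.80), Eln (0.65), Col14a1 (0.61) and Postn (0.61); these 5 were picked after their values were seen. Fmod stood at 42.6, 46.7, 8.59 and 8.23 CPM in WT replicates 1 to 4 and 40.4, 47.6, 21.3 and 19.0 CPM in KO replicates 1 to 4, so hearts numbered 1 and 2 were high and those numbered 3 and 4 low in both genotypes. Eln stood at 47.9, 44.6, 17.02 and 19.6 CPM in WT and 30.9, 53.3, 22.8 and 28.0 CPM in KO, Col14a1 at 35.6, 37.9, 14.9 and 15.3 and 23.0, 38.6, 24.9 and 17.2 CPM, and Postn at 150.3, 86.4, 64.3 and 58.3 and 79.9, 153, 98.9 and 55.0 CPM. Eln held the same split in both genotypes, while in Postn and Col14a1 KO heart 3 exceeded KO heart 1. Col12a1 did not hold it either, with 4.12, 6.04, 2.34 and 1.44 CPM in WT and 1.80, 6.15, 5.47 and 1.93 CPM in KO.

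Atrial markers followed the same numbers. Their summed level over 12 genes was 6236, 5249, 673 and 744 CPM in WT hearts 1 to 4 and 6644, 7213, 1373 and 1863 CPM in KO hearts 1 to 4, and 0 of the 12 passed the genotype test. Valve and cartilage-like markers (11 genes) summed to 163, 131, 47.7 and 46.7 CPM in WT and 128, 146, 129.6 and 67.3 CPM in KO, and mesothelial markers (11 genes) to 328, 405, 60.8 and 53.5 and 254, 322, 64.9 and 128 CPM, with 0 of either list passing. The valve list holds Fmod itself, and KO heart 3 was as high as KO heart 1 in it. No marker of the 3 lists was at 0 in a heart group, 0 genes of the other marker lists passed in heart, and their part in the spread of the matrix genes was not tested. With the mean atrial level or the number set as a covariate, 0 of the 40 genes passed. Within hearts numbered 3 and 4 alone (2 against 2) Fmod passed, at 1.26 ± 0.14 (edgeR, adjusted p = 0.0123, with 0.121% of all genes), and within numbers 1 and 2 none did. The number sets were chosen with earlier results of these data known, and Fmod itself split by them, so that p is descriptive. Within numbers 3 and 4 the atrial sums were also higher in KO (1373 and 1863 CPM) than in WT (673 and 744 CPM). Their part in the Fmod value was not tested.

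**Figure D4:**
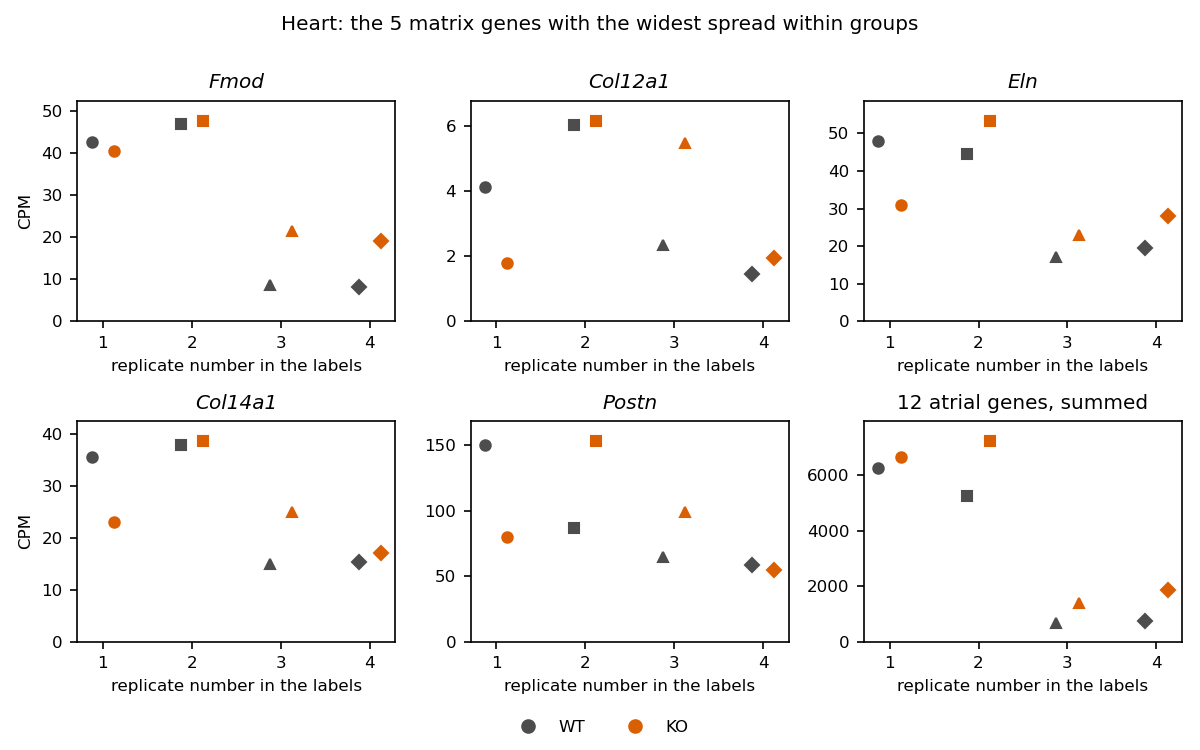
CPM in each heart for the 5 genes of the 40 with the widest spread within groups, and the summed CPM of 12 atrial marker genes, against the replicate number in the labels, WT in grey and KO in orange; vertical axes are linear and start at 0. Fmod and the atrial sum are high in hearts numbered 1 and 2 and low in 3 and 4 for both genotypes, and the KO hearts 3 and 4 lie above their WT counterparts for both.

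The difference of the KO effect between the tissues was tested itself, over all 14 libraries. None of the 40 genes passed in edgeR, where 1.15% of the 16014 genes tested passed, and 8 of the 40 had an unadjusted p below 0.05 (3 with the fat effect above the heart effect, 5 below), against 15.2% of all genes (6.14% above, 9.07% below). Col1a1 came nearest, with a fat effect of -1.03 and a heart effect of 0.08 in the separate fits and a difference of -1.11 ± 0.27 (adjusted p = 0.0549). Thbs1 followed with 1.32 in fat, -0.56 in heart and a difference of 1.88 ± 0.51 (adjusted p = 0.0798), and Bgn with -0.69, 0.16 and -0.85 ± 0.25 (adjusted p = 0.107). With the replicate number as a block Col1a1 passed (-1.08 ± 0.19, adjusted p = 0.0295, with 1.13% of all genes). Without fat WT replicate 1, 3 genes passed (Col1a1, Nid1 and Lamb2, with 8.03% of all genes). Without the filter on low counts Col1a1, Bgn and Thbs1 passed (with 1.74% of all genes).

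Around the 40 genes, 6 further lists of matrix genes were read in the same fits, where 5.49% of all genes passed in fat; the counts below are not tested against that share. Of 60 other glycoproteins and proteoglycans, 52 were tested in fat, and 6 rose and 4 fell. Spp1, which encodes osteopontin and is also on the lipid-associated macrophage list, fell by 3.76 on the log2 scale (SE 0.47, adjusted p = 0.0185). Ltbp2, a microfibril protein, fell too (-0.78 ± 0.11, adjusted p = 0.0216). The basement membrane protein gene Smoc1 rose (0.83 ± 0.17, adjusted p = 0.0334), as did Podn, a small leucine-rich proteoglycan (0.90 ± 0.19, adjusted p = 0.0363), Efemp1 (0.80 ± 0.17, adjusted p = 0.0398) and Fbln5, a fibulin of the elastic fibre (0.53 ± 0.12, adjusted p = 0.0401). Of 26 enzymes of collagen folding, processing and crosslinking tested, 2 fell and 0 rose: the transglutaminase Tgm2 (-0.51 ± 0.11, adjusted p = 0.0401) and the lysyl hydroxylase Plod1 (-0.41 ± 0.09, adjusted p = 0.0416). Of 24 matrix receptors, the syndecan gene Sdc1 (-1.44 ± 0.28, adjusted p = 0.0316) and Mrc2, which takes collagen up for degradation (-1.24 ± 0.27, adjusted p = 0.0399), fell and the integrin gene Itga3 rose (0.66 ± 0.15, adjusted p = 0.0442).

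Of 25 proteases and protease inhibitors tested, 3 rose and 5 fell. Mmp3 (-1.66 ± 0.24, adjusted p = 0.0221), the inhibitor Timp1 (-1.72 ± 0.34, adjusted p = 0.0313) and the cathepsin Ctsk (-2.15 ± 0.44, adjusted p = 0.0342), which the macrophage list also holds, fell. Timp4 (1.15 ± 0.19, adjusted p = 0.0258), the membrane-anchored inhibitor Reck (0.69 ± 0.13, adjusted p = 0.0291) and Mmp9 (1.18 ± 0.24, adjusted p = 0.0334) rose. None of 19 genes of the TGF-beta pathway passed in edgeR, with 5 at an unadjusted p below 0.05, and Tgfb1 (-0.97 ± 0.23, adjusted p = 0.0517) and Nrros (-0.85 ± 0.25, adjusted p = 0.0868) came nearest. Of 28 other collagens 13 were tested and 0 passed, with 3 at an unadjusted p below 0.05, the nearest being Col4a4 (0.91 ± 0.26, adjusted p = 0.0818) and Col27a1 (-0.89 ± 0.29, adjusted p = 0.115). In heart 0 genes of the 6 lists passed in edgeR, with 1 or 2 of each list at an unadjusted p below 0.05. The nearest in heart were the collagen receptor gene Ddr2 at -0.30, and, from the other lists, Col6a6 at 0.30, P4ha1 at -0.27, Lamb3 at 0.45, Adamts1 at -0.26 and Tgfb1 at -0.24. Further genes of those lists were Col15a1 at -0.22, Ccn5 at 0.82, P4ha2 at -0.21, Itga5 at -0.18 and Smad6 at 0.54, all as log2 fold changes. The fat calls are sensitive to the samples: leaving out KO replicate 1, 3 or 4 or WT replicate 4 left 0 genes of the whole table past the threshold, and Fhl2 itself did not pass then.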

How the data were processed

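The deposited table holds raw gene counts, which the authors made per the submitters' processing notes with Trimmomatic 0.32, HISAT2 2.1.0 and HTSeq 0.11.0 on mm10 (FastQC, Picard and limma are also listed); libraries were made with a Kapa mRNA kit per the labels. Neither the annotation release nor the strand setting is given in the sources used here. Each tissue was fitted on its own with edgeR 4.0.16 (R 4.3.3): filterByExpr by group, TMM scaling and the quasi-likelihood test, with Benjamini-Hochberg adjustment over all genes tested. WT heart against WT fat, and the difference of the KO effect between tissues, were fitted likewise. Exon lengths came from GENCODE M21 (GRCm38). DESeq2 1.42.0, limma-voom (limma 3.58.1), other scalings and filters, left-out samples and a replicate block were alternatives. The fits were tested on simulated counts.

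The 40 genes, the lists and the number sets were chosen with earlier results of these data known. Values in every sample are given for those of the 40 genes past the threshold in either KO comparison or in their difference between tissues (none), with the 12 smallest p in fat or the 4 smallest in heart, with the highest and lowest level per kilobase in each tissue, and for 1 chain per trimer; of each other pathway list at most 6 genes past the threshold are named, or the 2 nearest (1 gene is not reported here). Marker lists covered fibroblasts and progenitors, smooth muscle and pericytes, 2 kinds of macrophage, mesothelium, endothelium, adipocytes, cardiomyocytes, atrium, valve, Schwann cells, epididymal epithelium, and T and B cells. Means are over log2(CPM + 0.5) for marker levels and spreads.

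Samples with the same number deviated together in heart (correlations of deviations from the group means of 0.258 to 0.374) and not in fat (-0.218 to 0.0291). In heart, pairs of unlike numbers within 1 and 2 or within 3 and 4 were also positive (0.172 to 0.465). Pairs between those sets were all negative (-0.446 to -0.172), so the correlations followed the sets. Whether equal numbers mark related hearts was not tested and is not in the labels. The reported fits carry no block. The lowest chi-square per degree of freedom between samples of 1 group was 3.53 over 18 pairs, so no pair agreed within sampling noise.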

Additional observations from a re-analysis of the deposited data

Results flagged for a closer look

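In 6 of 82 sets of 4 hearts (1 gene in 1 genotype), 1 heart stood apart from the other 3 by Dixon's test for a single outlier at 95%; chance marks about 1 in 20. In WT heart replicate 1, Col5a2 stood at 56.6 CPM (the others 38.5 to 41.3), Lum at 148.6 CPM (100.3 to 105) and Thbs2 at 28.9 CPM (40.03 to 40.20). In WT heart replicate 2, Col5a1 stood at 41.8 CPM (48.2 to 49.1) and Lamb2 at 200.03 CPM (231 to 236). In KO heart replicate 3, Col1a1 stood at 97.9 CPM (70.0 to 70.7), while that heart was not marked for any other of the 40 genes. No gene was marked in heart replicate 4 of either genotype.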

How the results depend on the processing

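In fat, 0 matrix genes passed with edgeR as reported, with RLE scaling, plain library totals, a stricter filter and limma-voom. The count was 12 with DESeq2, 10 without the filter, 7 in 1 fit of all 14 libraries and 9 at an adjusted p below 0.1. Leaving out 1 fat sample at a time gave 0 to 12 genes, and the median log2 fold change of the 40 genes then ran from -0.25 (without WT replicate 4) to -0.10. In heart the count stayed 0 under every alternative run except within hearts numbered 3 and 4, where it was 1 (Fmod). For the difference between tissues it was 3 without the filter, 0 to 3 with 1 sample left out, and 0 with plain library totals. Between WT heart and WT fat it was 35 to 37 with 1 sample left out. The replicate number as a block gave 0 matrix genes in fat (0 of all 15200 genes), 0 in heart (5 at an unadjusted p below 0.05), 37 between the WT tissues and 1 for the difference between tissues (Col1a1, -1.08 ± 0.19, adjusted p = 0.0295, with 1.13% of all genes). The median over the 40 genes in each sample, averaged over the samples, was 36.0 CPM per kilobase in WT fat and 9.76 CPM in WT heart by merged exons, 63.8 and 19.3 CPM by coding length, and 44.2 and 12.8 CPM by the longest transcript. Of the 40 genes, 30 kept their sign in fat under every alternative run and 12 did in heart; those changing sign in fat had values near 0, such as Tnxb and Vcan (5 of 14 alternatives each). Among the 12 genes with the smallest p in fat, the 4 in heart and the genes named from the other lists, Itga5 in heart changed sign, to 0.0216 within hearts numbered 3 and 4, with 51 values newly past the threshold and 121 no longer past it. The causes were not tested.

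With 3 samples a group, fat calls rest on single samples: without WT replicate 4, or without any KO replicate, 0 genes of the whole table passed, and without WT replicate 3, 132 did. Counts cover counting error only through the fits. Which part of Fhl2 was removed, sex and litter are not in the labels.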
